A study of Mus musculus with 8 samples.

Results

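Slc1a2, Slc1a3, Slc4a4 and Aqp4 are membrane transporter and channel genes of radial glia and astrocytes, and they were followed through 4 stages or regions of the mouse brain. They were chosen by name, with earlier results of these data known. Every probe set whose gene symbol is one of the 4 was taken. That gave 9 of the 22511 probe sets on the array, for 4 of the 9593 genes it names. Slc1a2 had 4 of them, Slc1a3 had 3, and Slc4a4 and Aqp4 had 1 each. Whole embryonic brain was taken 13.5 and 15.5 days post coitum (dpc), and cortex and cerebellum were taken separately from newborn mice. All mice were heterozygous for the translocation T9H between chromosomes 7 and 15, and every sample carried one of a complementary pair of duplications. In the first, called paternal-7 here, both copies of proximal chromosome 7 came from the father and both copies of proximal chromosome 15 from the mother. In the second, called maternal-7, the parents were exchanged. Neither is an unmanipulated control, and no wild type array is among the samples. Each duplication was measured on 1 array at each stage or region, 8 arrays in all. The design has no biological replicates, the neonatal age in days is not in the labels, and the labels do not say whether tissue of several animals was pooled.

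Astrocytes clear transmitter, ions and water from the space around neurons, and they arise late, from radial glia that first produce neurons. Slc1a2 (GLT-1) and Slc1a3 (GLAST) encode the sodium-driven glutamate transporters of astrocytes. GLAST is also carried by radial glia and by the Bergmann glia of the cerebellum, and GLT-1 becomes the main glutamate transporter of the mature forebrain. Slc4a4 encodes an electrogenic sodium bicarbonate cotransporter that couples astrocyte pH to membrane voltage, and Aqp4 encodes the water channel of astrocyte endfeet around blood vessels. Slc1a3 lies on chromosome 15, as does one of the duplicated parts, but the labels give no breakpoints, so whether it lies inside was not established.

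Windows around the transcription starts are shown for the solute carrier genes as a description, and none is shown for Aqp4, which also rose. They run from 250 bases before to 50 bases after each start that RefSeq lists for GRCm38.p6 in the table used, and Slc4a4 has 2 starts there. Capitals mark matches to TTGGC, the short motif of NFI factors, or to ACAAT, a core bound by SOX factors, on either strand; both factor families are known to act in astrocyte formation.
Slc1a2 (chr2:102706188-102706487, + strand): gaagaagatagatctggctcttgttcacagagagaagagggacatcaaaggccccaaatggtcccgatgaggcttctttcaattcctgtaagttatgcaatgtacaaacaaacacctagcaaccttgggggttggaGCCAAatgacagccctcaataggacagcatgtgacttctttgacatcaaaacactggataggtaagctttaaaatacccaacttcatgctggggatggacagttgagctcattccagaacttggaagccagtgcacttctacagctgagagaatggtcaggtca
Slc1a3 (chr15:8710758-8711057, - strand): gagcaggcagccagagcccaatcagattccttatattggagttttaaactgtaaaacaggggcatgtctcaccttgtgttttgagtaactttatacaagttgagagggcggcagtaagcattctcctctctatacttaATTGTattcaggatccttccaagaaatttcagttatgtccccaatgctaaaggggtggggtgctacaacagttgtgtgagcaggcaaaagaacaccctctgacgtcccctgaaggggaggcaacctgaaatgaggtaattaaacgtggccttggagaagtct
Slc4a4 first start (chr5:88887010-88887309, + strand): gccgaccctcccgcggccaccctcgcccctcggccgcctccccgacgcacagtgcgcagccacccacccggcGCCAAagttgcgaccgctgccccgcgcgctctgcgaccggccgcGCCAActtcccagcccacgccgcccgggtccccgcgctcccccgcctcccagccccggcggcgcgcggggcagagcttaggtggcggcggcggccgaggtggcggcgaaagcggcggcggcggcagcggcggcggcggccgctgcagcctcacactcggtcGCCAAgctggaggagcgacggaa
Slc4a4 second start (chr5:89027716-89028015, + strand): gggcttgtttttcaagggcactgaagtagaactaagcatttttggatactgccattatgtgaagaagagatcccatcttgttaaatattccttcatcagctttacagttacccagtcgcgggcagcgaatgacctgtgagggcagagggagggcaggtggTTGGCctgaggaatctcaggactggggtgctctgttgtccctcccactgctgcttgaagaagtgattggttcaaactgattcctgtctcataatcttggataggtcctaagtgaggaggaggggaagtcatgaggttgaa
The listed Slc1a2 start lies inside the gene. Its window held TTGGC once on the reverse strand, 114 bases before the start, and no ACAAT. The Slc1a3 window held ACAAT once on the reverse strand, 112 bases before the start, and no TTGGC. The first Slc4a4 window, of which 80.0% is G or C, held TTGGC 3 times, 178 and 134 bases before and 27 bases after the start, and the second held it once, 90 bases before. Such matches were common: 46.7% of 32841 windows in the table held TTGGC and 31.0% held ACAAT. The motifs do not overlap in these windows, and a match describes letters only.

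Testing was possible for 5 of the 9 probe sets, which covered all 4 genes. Signals are MAS5 units on a linear scale, and the filter asked for a signal above the median of its own array on 2 or more arrays, which 13221 of 22511 probe sets passed. The array medians lay between 229.8 and 285.7 units, and the trimmed mean was 499.9 on every array. The tested probe sets were Slc1a2 A, Slc1a2 B (letters follow brightness within a gene) and the brightest ones of Slc1a3, Slc4a4 and Aqp4. Slc1a2 A, Slc1a3, Slc4a4 and Aqp4 lay above the array median on all 8 arrays, so the filter decided nothing about them. Slc1a2 B passed on its 4 neonatal arrays alone, so its being brighter there was built into the filter, and the counts of genes below leave it out. The Slc1a3 probe set is of a type that the manufacturer marks as able to bind related transcripts. In tissue RNA, fewer cells of a type and less RNA per cell cannot be told apart.

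The untested probe sets were at background on every array. Slc1a2 C averaged 156 ± 39.3 units in neonatal and 114 ± 66 in embryonic arrays (SD, n = 4 each), and Slc1a2 D ranged from 25.5 to 93.6. Slc1a3 B ranged from 61.7 to 218 units and Slc1a3 C from 3.70 to 126. None of these 4 exceeded the array median on any of the 8 arrays, and for each the neonatal and embryonic ranges overlapped. A further probe set that the annotation lists for both Slc1a2 and Gm13872 ranged from 60 to 130.0 units. It was not counted among the 9.

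All 4 genes were higher in the neonatal regions than in the embryonic brain. The neonatal samples are dissected regions and the embryonic ones whole brain, so age and dissected tissue cannot be told apart in any of these comparisons. For each gene, by the probe set that lay above the array median on all 8 arrays, all 4 neonatal arrays lay above all 4 embryonic arrays. This held for 11.8% of all tested probe sets and for 12.7% of the 7994 that were above the median on all 8 arrays. All 4 were called higher (limma, adjusted p below 0.05), where 14.3% of all tested probe sets, and 14.4% of those 7994, were called in that direction and 16.4% of all tested were called lower. The 4 genes were chosen with earlier results of these data known, so setting them beside these shares is a description only. The test compares the mean of both neonatal regions with the mean of both embryonic ages on the log2(signal + 58.5) scale. The median over all tested probe sets was itself below 0 in this comparison, at -0.16, and with median centring 2398 were called higher and 1058 lower, against 1886 and 2167 as given. For 3 of the 4 genes both 15.5 dpc arrays also lay above both 13.5 dpc arrays, as for 22.5% of all tested probe sets, and these 3 stood in the order 13.5 dpc, 15.5 dpc, neonatal on every array, as 7.09% did. Aqp4 was the exception. The log2 differences of the 4 genes ranged from 1.03 to 1.49, and relative to that median from 1.19 to 1.64.

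Slc4a4 had the smallest p among them. Its signals were 828 (paternal-7) and 963 (maternal-7) at 13.5 dpc, 1609 (paternal-7) and 1902 (maternal-7) at 15.5 dpc, 3121 (paternal-7) and 3266 (maternal-7) in neonatal cortex, and 3872 (paternal-7) and 4329 (maternal-7) in neonatal cerebellum. Each context lay wholly above the one before it. The neonatal arrays averaged 3647 ± 559 units and the embryonic arrays 1326 ± 514 (SD, n = 4 arrays each). On the log2 scale they were higher by 1.49 ± 0.12 (SE; limma adjusted p = 0.000907). Slc4a4 was also the only one of the 4 that was called between both embryonic ages, and it was higher at 15.5 dpc, with 1756 ± 207 units, than at 13.5 dpc, with 895 ± 95.1 (SD, n = 2 arrays each). That difference was 0.93 ± 0.18 (limma adjusted p = 0.0338), in a comparison where 3.52% of all tested probe sets were called higher. The call was lost whenever any 1 of the 8 arrays was left out (0.88 to 0.97, limma adjusted p from 0.0723 to 0.159), while the direction stayed.

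Slc1a3 followed the same course. Its signals were 1897 (paternal-7) and 2511 (maternal-7) at 13.5 dpc, 2985 (paternal-7) and 3988 (maternal-7) at 15.5 dpc, 5787 (paternal-7) and 5418 (maternal-7) in neonatal cortex, and 6418 (paternal-7) and 7088 (maternal-7) in neonatal cerebellum. The lowest neonatal array thus stood above the highest embryonic one, and the cerebellum arrays were the highest of all. The means were 6178 ± 734 units in neonatal and 2845 ± 882 in embryonic arrays (SD, n = 4 each), a log2 difference of 1.15 ± 0.15 (limma adjusted p = 0.00273). Between 15.5 and 13.5 dpc the arrays did not overlap, but the difference of 0.65 ± 0.21 was not called (limma adjusted p = 0.119).

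Slc1a2 is described by probe set A, which was above the array median on all 8 arrays. It read 1508 (paternal-7) and 1738 (maternal-7) at 13.5 dpc, 1908 (paternal-7) and 2688 (maternal-7) at 15.5 dpc, 5154 (paternal-7) and 4348 (maternal-7) in neonatal cortex, and 3891 (paternal-7) and 3759 (maternal-7) in neonatal cerebellum. Here the cortex arrays were the highest. Its neonatal mean was 4288 ± 630.0 units against 1960 ± 512 in embryonic arrays (SD, n = 4 each), a log2 difference of 1.13 ± 0.16 (limma adjusted p = 0.00385). Between 15.5 and 13.5 dpc it stood at 0.47 ± 0.23 without a call (limma adjusted p = 0.278).

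Slc1a2 B was at background in the embryos. It read 49.0 (paternal-7) and 163 (maternal-7) at 13.5 dpc and 266 (paternal-7) and 247 (maternal-7) at 15.5 dpc, all below the array median. It read 887 (paternal-7) and 814 (maternal-7) in neonatal cortex and 994 (paternal-7) and 721 (maternal-7) in neonatal cerebellum. The neonatal signals were at least 3.14-fold higher, taking the larger of the embryonic signal and the array median as the embryonic level. This bound is a description, since the filter kept the probe set for its neonatal signals. With both embryonic ages at background, no order between them is drawn from this probe set.

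Aqp4, on chromosome 18, had overlapping embryonic ages and a wide neonatal spread. It read 503 (paternal-7) and 577 (maternal-7) at 13.5 dpc, 649.7 (paternal-7) and 364 (maternal-7) at 15.5 dpc, 857 (paternal-7) and 877 (maternal-7) in neonatal cortex, and 2150 (paternal-7) and 925 (maternal-7) in neonatal cerebellum. Of the neonatal arrays, 3 lay close together, with the paternal-7 cerebellum far above them. The means were 1202 ± 633 units in neonatal and 523 ± 122 in embryonic arrays (SD, n = 4 each), and the log2 difference was 1.03 ± 0.25 (limma adjusted p = 0.0219). Without the paternal-7 cerebellum array it was 0.78 and no longer called (limma adjusted p = 0.0774). The call was also lost without the maternal-7 cortex array (0.88, limma adjusted p = 0.0846), the maternal-7 15.5 dpc array (0.92, limma adjusted p = 0.0642) or the paternal-7 13.5 dpc array (0.83, limma adjusted p = 0.0694). Between 15.5 and 13.5 dpc Aqp4 stood at -0.13 ± 0.35 (limma adjusted p = 0.872), with a 95% confidence interval from -0.95 to 0.70. Whether its course differs from those of the other genes was not tested.

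**Figure D1:**
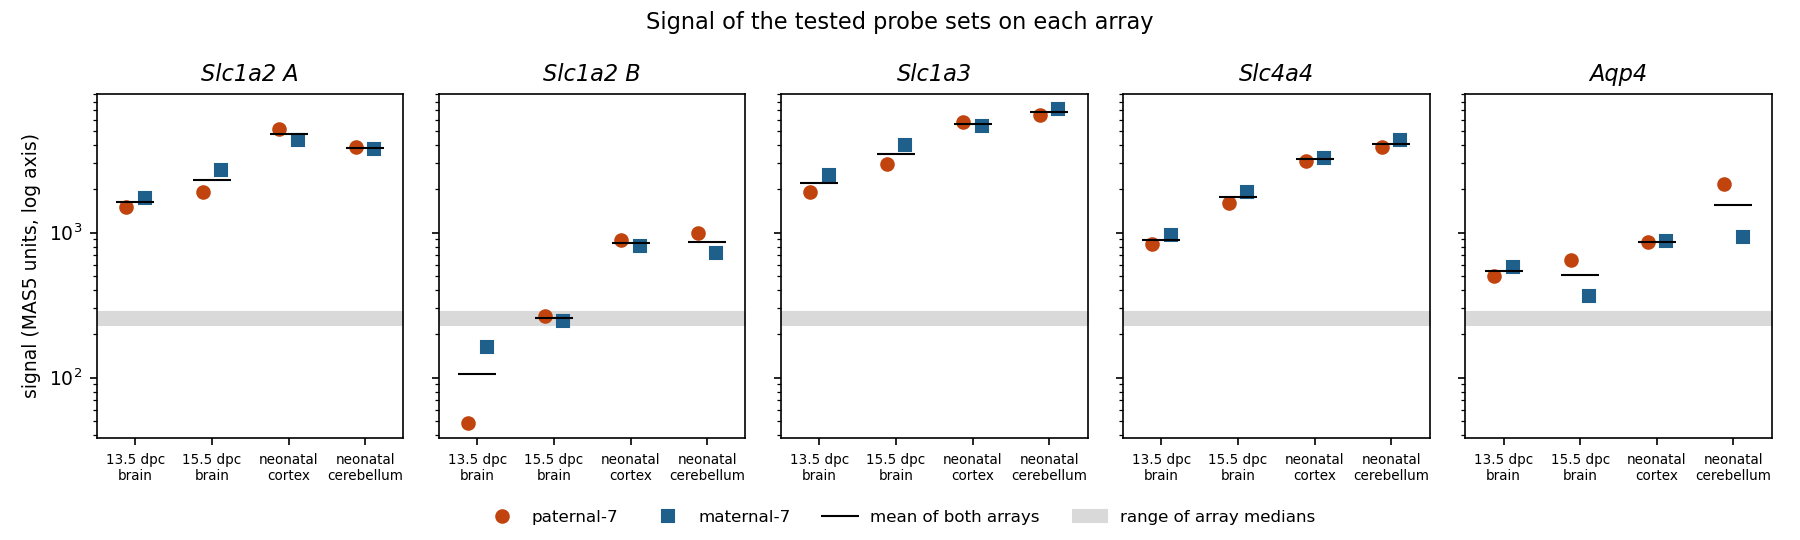
Signal of each tested probe set (MAS5 units, log axis) on each of the 8 arrays, by context, with paternal-7 arrays as circles, maternal-7 arrays as squares, the mean of both arrays as a bar and the range of array medians in grey. Every neonatal point lies above every embryonic point of the same panel. Slc1a2 B lies at or below the grey band in the embryos, and the Aqp4 point of the paternal-7 cerebellum stands at 2150 units.

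The order of levels along the 4 contexts was the same for Slc1a3 and Slc4a4. In both, neonatal cerebellum came first, then neonatal cortex, 15.5 dpc and 13.5 dpc. Slc1a2 A had cortex before cerebellum, while Slc1a2 B was level between them, and Aqp4 had 13.5 dpc before 15.5 dpc. Neighbours in these orders mostly could not be told apart by the test. Between cerebellum and 15.5 dpc, Slc4a4 (1.20 ± 0.18, limma adjusted p = 0.0234) and Slc1a3 (0.95 ± 0.21, limma adjusted p = 0.0486) were called higher in cerebellum, where 3.66% of all tested probe sets were. Leaving out any 1 of the 8 arrays ended the call of Slc1a3 (0.82 to 1.09, limma adjusted p from 0.0604 to 0.259), and leaving out any 1 of the 6 neonatal and 15.5 dpc arrays ended that of Slc4a4 (1.15 to 1.25, limma adjusted p from 0.0657 to 0.177). Between cortex and 15.5 dpc, no tested probe set of the 4 genes was called, and 2.70% of all were called higher. The values there ran from 0.69 ± 0.21 for Slc1a3 (limma adjusted p = 0.107) to 1.04 ± 0.23 for Slc1a2 A (limma adjusted p = 0.0553), leaving out Slc1a2 B, and Slc4a4 stood at 0.85 ± 0.18 (limma adjusted p = 0.0503).

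Against 13.5 dpc, Slc1a2 A, Slc1a3 and Slc4a4 had larger neonatal differences than against 15.5 dpc. In cortex 3 of the 4 genes were called, all higher, where 13.3% of all tested probe sets were called higher and 25.7% in either direction. In cerebellum all 4 were called higher, where 24.8% were called in either direction. Slc4a4 was higher by 2.13 ± 0.18 in cerebellum (limma adjusted p = 0.00106) and by 1.77 ± 0.18 in cortex (limma adjusted p = 0.00156). Slc1a3 was higher by 1.60 ± 0.21 in cerebellum and by 1.34 ± 0.21 in cortex, and Slc1a2 A by 1.21 ± 0.23 in cerebellum and by 1.51 ± 0.23 in cortex. Aqp4 was called in cerebellum at 1.30 ± 0.35 (limma adjusted p = 0.0361). That call ended without the paternal-7 cerebellum array (0.81, limma adjusted p = 0.236), without the paternal-7 13.5 dpc array (0.90, limma adjusted p = 0.204), without either cortex array (limma adjusted p = 0.0544), with a floor of 1 (limma adjusted p = 0.054) and with no filter (limma adjusted p = 0.073). In cortex Aqp4 stood at 0.63 ± 0.35 without a call (limma adjusted p = 0.218). Against 15.5 dpc it stood at 1.43 ± 0.35 in cerebellum and 0.76 ± 0.35 in cortex, again without a call (limma adjusted p = 0.0631 and 0.222). These comparisons share their embryonic arrays. Without the paternal-7 cortex array, Slc1a2 A (limma adjusted p = 0.0629) and Slc1a3 (limma adjusted p = 0.0703) were no longer called in cortex, in a fit that called 845 of all tested probe sets where the full fit called 3400. In cerebellum Slc1a2 A lost its call without either cerebellum array or the paternal-7 13.5 dpc array (limma adjusted p from 0.0582 to 0.0946). Those fits called 947 without the paternal-7 cerebellum, 1369 without the maternal-7 cerebellum and 1387 without the paternal-7 13.5 dpc array, where the full fit called 3280.

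Between the neonatal regions none of the 4 genes was called. The regions matched their labels in Slc17a7, the vesicular glutamate transporter gene of cortical excitatory neurons, which read 2215 (paternal-7) and 1127 (maternal-7) in cortex and 301 (paternal-7) and 234 (maternal-7) in cerebellum (limma adjusted p = 0.0293). That is a single gene. Of the 4 tested Bergmann glia genes, 0 were called between the regions (median -0.39, cortex minus cerebellum). In all, 43 of 13221 probe sets (0.325%) were called between cortex and cerebellum in either direction. Slc1a2 A averaged 4751 ± 569.7 units in cortex and 3825 ± 93.5 in cerebellum (SD, n = 2 arrays each). Its log2 difference, cortex minus cerebellum, was 0.30 ± 0.23 (limma adjusted p = 0.866, 95% confidence interval -0.24 to 0.84), while Slc1a2 B averaged 850.3 ± 51.5 in cortex and 857 ± 193 in cerebellum and stood at 0.00 ± 0.35 (limma adjusted p = 0.998). The other 3 genes had lower means in cortex. Slc1a3 averaged 5602 ± 261 in cortex and 6753 ± 474 in cerebellum, a difference of -0.27 ± 0.21 (limma adjusted p = 0.871, interval -0.76 to 0.22). Slc4a4 averaged 3194 ± 102 in cortex and 4100 ± 323 in cerebellum, a difference of -0.35 ± 0.18 (limma adjusted p = 0.736, interval -0.77 to 0.07). Aqp4 averaged 867 ± 14.3 in cortex and 1538 ± 866 in cerebellum, a difference of -0.67 ± 0.35 (limma adjusted p = 0.749, interval -1.50 to 0.16). Differences inside these intervals are compatible with these 8 arrays, so equal levels in both regions were not shown.

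**Figure D2:**
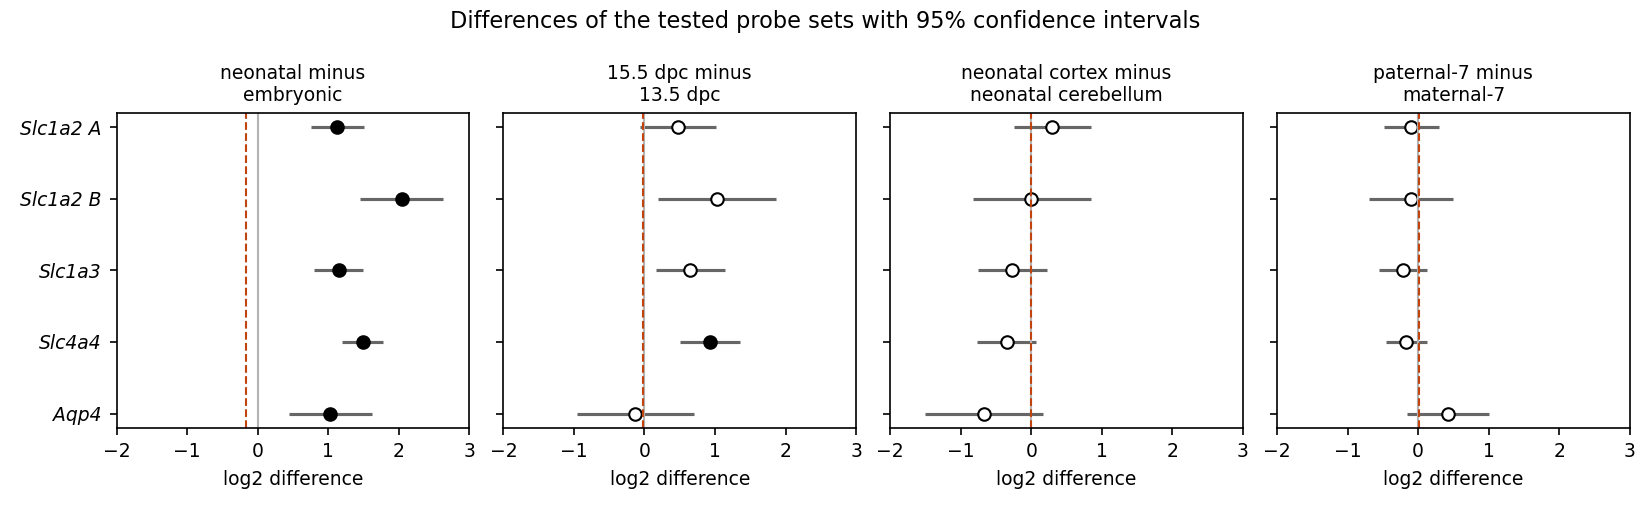
Log2 differences (x axes) of the 5 tested probe sets with 95% confidence intervals as lines, filled where limma called them, for neonatal minus embryonic, 15.5 minus 13.5 dpc, cortex minus cerebellum and paternal-7 minus maternal-7. The dashed line is the median of all tested probe sets. All 5 points are filled in the first panel, Slc4a4 alone in the second, and none in the others. Slc1a2 B passed the filter for its neonatal signals, so its place in the first panel was built in.

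The parental origin of the duplicated segments gave no call for any of the 4 genes. Over all tested probe sets, limma called 1 (0.00756%) for the duplications, and 1147 had an unadjusted p below 0.05. Slc1a3, the one that lies on chromosome 15, averaged 4272 ± 2175 units in paternal-7 and 4751 ± 1958 in maternal-7 arrays (SD over 4 contexts), and its log2 difference was -0.21 ± 0.15 (limma adjusted p = 0.663, 95% confidence interval -0.56 to 0.13). It was higher in paternal-7 in 1 of 4 contexts. Slc4a4 was lower in paternal-7 in all 4 contexts, by small amounts (-0.23 to -0.06), and its difference was -0.17 ± 0.12 (limma adjusted p = 0.686, interval -0.46 to 0.13). Slc1a2 A stood at -0.10 ± 0.16 (interval -0.48 to 0.29) and Slc1a2 B at -0.10 ± 0.25 (interval -0.69 to 0.49), and neither was called (limma adjusted p = 0.864 and 0.913). The embryonic pairs of Slc1a2 B were at background. Aqp4 stood at 0.43 ± 0.25 (limma adjusted p = 0.627, interval -0.16 to 1.01), and its pairs differed by 1.17 in cerebellum, 0.74 at 15.5 dpc, -0.03 in cortex and -0.18 at 13.5 dpc.

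In the embryos the maternal-7 arrays were the higher ones for 3 of the 4 genes. The share of all tested probe sets with this direction was not counted, so no trait of these genes is read from it. The array medians were higher in paternal-7, with 277.9 against 257.1 in maternal-7 at 15.5 dpc and 285.7 against 261.4 at 13.5 dpc. The part of these medians in the direction was not tested. At both embryonic ages Slc1a2 A, Slc1a3 and Slc4a4 were lower in paternal-7, by 0.48, 0.41 and 0.23 log2 units at 15.5 dpc and by 0.20, 0.39 and 0.20 at 13.5 dpc. These values are smaller than the SD of such differences over all tested probe sets, which was 0.576 at 15.5 dpc and 0.531 at 13.5 dpc. The summed signal of the 4 tested neuron marker genes moved in the same direction, with 34423 (paternal-7) against 39489 (maternal-7) at 15.5 dpc and 15254 (paternal-7) against 22287 (maternal-7) at 13.5 dpc. Each of these genes was lower in paternal-7 at 13.5 dpc, but they were split at 15.5 dpc. There Map2 (13040 in paternal-7, 16579 in maternal-7) and Nefl (7368 and 11187) were lower in paternal-7. Rbfox3 (5888 and 5075) and Syt1 (8127 and 6648) were higher in it. The part of the neuron signal in the result was not tested. In the model with separate duplication effects, limma called no probe set (0.00%) for a difference between neonatal and embryonic contexts, and 1209 had an unadjusted p below 0.05. Slc1a3 stood at 0.38 ± 0.24 there (limma adjusted p = 0.647), Slc4a4 at 0.11 ± 0.24 (limma adjusted p = 0.897) and Aqp4 at 0.28 ± 0.51 (limma adjusted p = 0.873). Slc1a2 B stood at 0.75 ± 0.43 (limma adjusted p = 0.618), but its embryonic signals were at background, so little is read from this value.

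**Figure D3:**
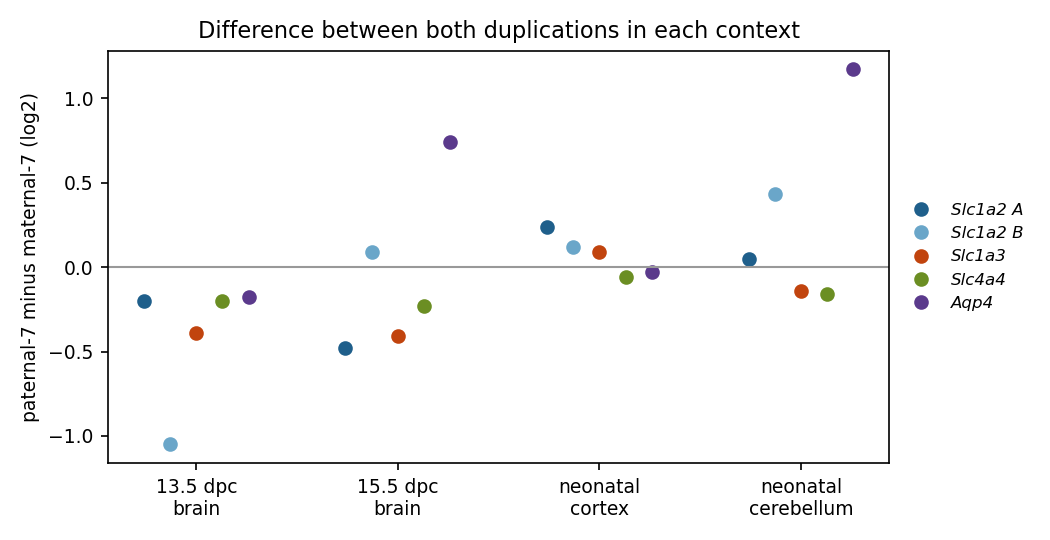
Log2 difference, paternal-7 minus maternal-7, of each tested probe set in each context (1 array per duplication, so points carry no error). Slc4a4 lies below 0 in all 4 contexts by at most 0.23, and Aqp4 lies at 1.17 in cerebellum and near 0 in cortex.

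Other genes of radial glia and astrocytes were mixed in the comparison of neonatal with embryonic samples. Of 39 further genes listed for these cells, 11 had a probe set of their own symbol, 7 were tested, 3 rose and 1 fell (median 0.38). Slc6a11, the astrocyte GABA transporter gene, rose by 2.78 ± 0.35 (limma adjusted p = 0.00251), with 3540 ± 1802 units in neonatal and 587 ± 465 in embryonic arrays (SD, n = 4 each). Rfx4, a transcription factor gene of neural progenitors, rose by 0.81 ± 0.16, while its other probe set gave 0.40 without a call. Against 15.5 dpc, Rfx4 stood at -0.15 ± 0.23 in cortex and 0.81 ± 0.23 in cerebellum (limma adjusted p = 0.705 and 0.0868). Acsl3, an acyl-CoA synthetase gene, rose by 0.63 ± 0.15, a call that quantile normalization ended (0.48, limma adjusted p = 0.0504). Gli3, a factor of the hedgehog pathway in early progenitors, fell by 0.85 (SE 0.13, limma adjusted p = 0.005). Nfia, an NFI factor gene that drives the switch to glia, stood at 0.23 ± 0.13 (limma adjusted p = 0.197), and Nfib at -0.36 ± 0.14 (limma adjusted p = 0.0967). Another probe set of Nfib was called lower (-0.49, limma adjusted p = 0.0439), and quantile normalization called the brightest one lower (-0.58, limma adjusted p = 0.025). Sox9 and Tnc were below the array median on every array.

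The endfoot and coupling genes, which anchor or work beside Aqp4 at the vessel wall, had 4 tested genes of 19 listed, and 2 of them rose. Hepacam, an adhesion gene of astrocyte junctions, rose by 2.19 ± 0.13 (limma adjusted p = 0.000574), and its other probe set gave 2.26. It read 385 (paternal-7) and 492 (maternal-7) at 13.5 dpc, 1110 (paternal-7) and 1502 (maternal-7) at 15.5 dpc, 3067 (paternal-7) and 3549 (maternal-7) in cortex, and 3651 (paternal-7) and 4553 (maternal-7) in cerebellum, in the same order as Slc4a4. Kcnj16, an inward rectifier potassium channel gene, was the other, at 1.03 ± 0.21, but it was below the array median on every embryonic array. It passed the filter on its neonatal arrays alone, so its direction was built in, and the count of 2 includes it. Agrn stood at 0.31 ± 0.16 and Dtnb at -0.01 ± 0.16 without a call, and Dtna and Dmd were below the median on every array.

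Between neonatal and embryonic samples, the relatives of the 4 genes were not called by their brightest probe sets. Of the glutamate transporter family, Slc1a5 stood at -0.40 ± 0.24 (limma adjusted p = 0.222) and Slc1a7 at -0.04 ± 0.21 (limma adjusted p = 0.896). In cortex against 13.5 dpc alone, Slc1a5 was called lower (-1.13 ± 0.33, limma adjusted p = 0.0488), where 12.5% of all tested probe sets were. In their list of transmitter uptake and glutamine cycle genes, 6 of 20 were tested and 1 rose, Slc6a11, which the glial list also holds. Of the bicarbonate and pH genes 5 of 20 were tested and none was called by its brightest probe set, with Slc4a3 at 0.15 ± 0.25, Slc4a8 at -0.28 ± 0.36 and Slc4a11 at -0.37 ± 0.16. Other probe sets were called for Slc4a8, at 1.55 and -0.68, and for Slc4a11, at -0.82. The other aquaporins tested, Aqp6, Aqp11 and Aqp12, lay between -0.39 and -0.12 without a call in their brightest probe sets, while another of Aqp11 was called at 1.19.

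Markers of other cells also differed between neonatal and embryonic samples. All 4 tested neuron genes rose, among them Syt1, a synaptic vesicle gene, by 1.59 ± 0.15 (limma adjusted p = 0.00123) and Rbfox3, a gene of mature neurons, by 1.32 ± 0.17 (limma adjusted p = 0.00263). The median of these 4 was 1.14, equal to the median of the 4 astrocyte transporter and channel genes. The summed neuron signal ran from 52478 to 62034 units in neonatal and from 15254 to 39489 in embryonic arrays. Of the 3 oligodendrocyte lineage genes tested, 1 rose, Gpr17, by 2.47 ± 0.35 (limma adjusted p = 0.00374). Gpr17 passed the filter on its neonatal arrays and the maternal-7 15.5 dpc array (265 units, array median 257.1). The filter thus favoured its rise. Of 4 tested ependymal genes 3 rose, with Ccdc153 at 1.91 ± 0.13. Ccdc153 was below the array median on every embryonic array. It passed the filter on its neonatal arrays alone, so its direction was built in. Of the Bergmann glia genes 3 of 4 rose, Slc1a3 itself, the glutamate receptor gene Gria4 (0.94 ± 0.12) and Etv5 (0.53 ± 0.14). All 3 tested genes of dividing cells fell, the replication gene Mcm5 by 2.07 (SE 0.19), Top2a by 0.71 (SE 0.21) and Cenpf by 0.52 (SE 0.14). Top2a passed the filter on embryonic arrays alone, and Cenpf on these and the paternal-7 cerebellum array, so the filter favoured their falls. With quantile normalization or median centring Top2a (-0.54 and -0.53) and Cenpf (-0.35 in both) were no longer called. Choroid plexus genes (3 tested), Flt1 of endothelium and Dcn of meninges gave no call, although quantile normalization called Ttr higher (0.69) and Clic6 lower (-0.53), and no microglial marker had a probe set of its own symbol. The summed choroid plexus signal ran from 36139 to 45552 units in neonatal and from 24815 to 58548 in embryonic arrays. The part of these cells in the signals of the 4 genes was not tested.

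**Figure D4:**
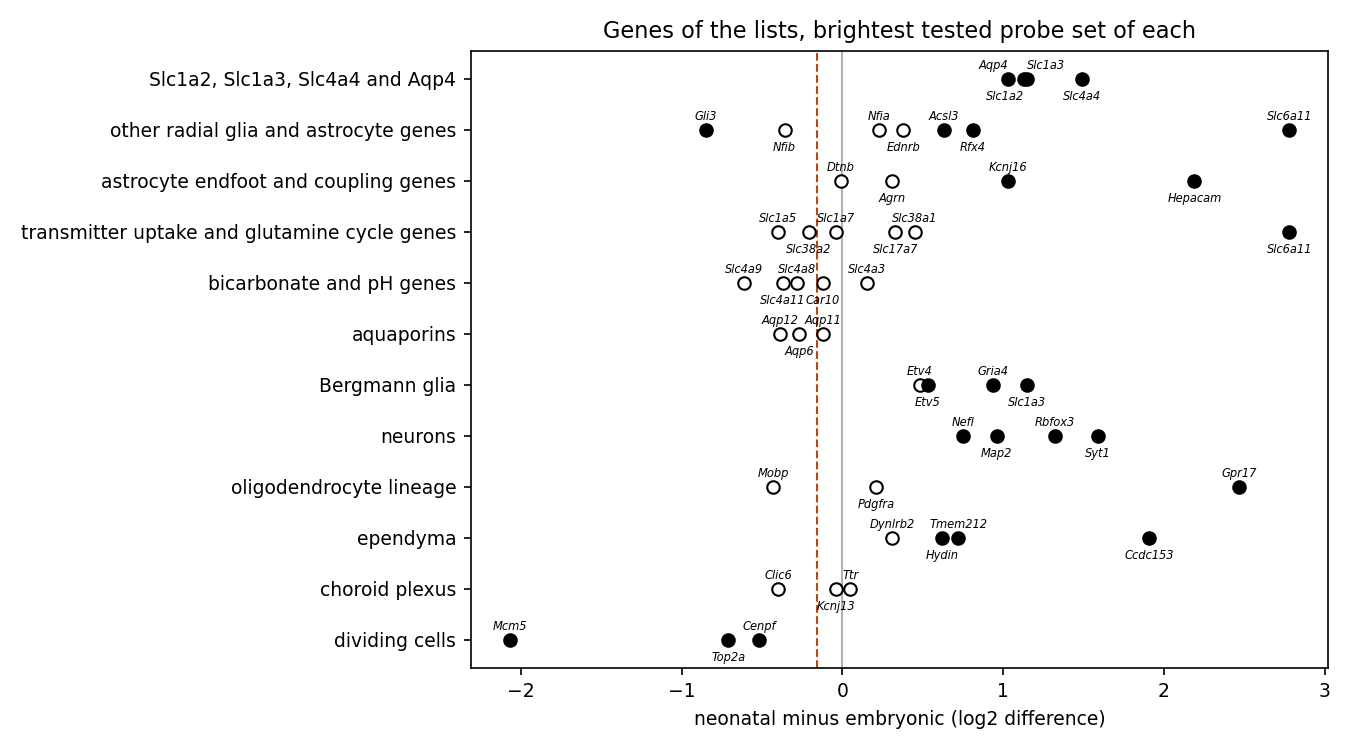
Neonatal minus embryonic log2 difference (x axis) of each tested gene of the lists, by the brightest probe set, filled where limma called it, with the median of all tested probe sets dashed. The 4 astrocyte transporter and channel genes lie between 1.03 and 1.49, the 4 neuron genes are all filled, and the 3 genes of dividing cells are filled below 0. Kcnj16 and Ccdc153 passed the filter on neonatal arrays alone and Top2a on embryonic arrays alone, so their directions were built in. The filter also favoured the rise of Gpr17 and the fall of Cenpf.

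The genes whose signals ran most like each of the 4 were ranked by Pearson's r over the 8 arrays. The measure is descriptive: 4 of the 8 points are neonatal, and any gene with a steady difference between ages scores high. For Slc4a4 the nearest were Hepacam (r = 0.997), Zscan18, Kndc1, Kcnd3 and Gnal (0.992 to 0.995). For Slc1a3 they were Stxbp6 (0.996), Igsf21, Ids, Kndc1 and Tnks2 (0.992 to 0.995), and Kndc1 was shared with Slc4a4. Slc4a4 and Slc1a3 were themselves at r = 0.989. Slc4a4 stood at place 9 among the 9772 tested probe sets with 1 symbol when ranked by likeness to Slc1a3. That ranking counts Slc1a3 itself at place 1. For Slc1a2 A the nearest were Strbp (0.992), Ccdc88a, Pdzd4, Abi2 and Appbp2 (0.986 to 0.990), its own probe set B was at 0.943, and Slc1a3 at 0.936. For Aqp4 they were Mgrn1 (0.966), Tspyl3, Rasgrf2, Gm4988 and Ncoa7 (0.946 to 0.958), and its r with Slc4a4, Slc1a3 and Slc1a2 A was 0.685, 0.659 and 0.586.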

How the data were processed

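One Affymetrix 430B array was hybridised per sample with brain RNA of 8 samples. The authors deposited signal intensities on a linear scale, made with MAS5 per the submitters' processing notes (version not given in the sources used here). Each deposited intensity column had the same trimmed mean, and nothing further was normalized. The number of arrays limits the precision.

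After 64 control probe sets were removed, 14661 of 22511 probe sets had 1 gene symbol, 245 several and 7605 none (platform annotation, older symbols renamed by RefSeq, GRCm38.p6). On log2(signal + 58.5), where the pseudocount understates differences of dim probe sets, limma 3.58.1 in R 4.3.3 fitted context and duplication to all 13221 tested probe sets, and Benjamini-Hochberg adjustment ran over all of them. A second model split the duplication effect by age. The fit was tested on simulated data. No group holds a second array, so p-values measure only the spread of these arrays around an additive model. A value after ± is an SE for a log2 difference and an SD for a signal.

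The members and gene lists were chosen with earlier results of these data known. Named were all member probe sets, up to 4 called genes of each list by size, and the 5 genes with the highest Pearson's r to each member, and genes without a call were added to show the rest of their list. A gene with several probe sets is given by its brightest tested one. Alternatives were quantile normalization, median centring, other pseudocounts, a floor of 1, other filters, no duplication term, and leaving out arrays.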

Additional observations from a re-analysis of the deposited data

Results flagged for a closer look

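Of the 10 sets of 4 arrays examined (neonatal and embryonic arrays for each of the 5 tested probe sets), 1 held an array far from the other 3. The paternal-7 cerebellum read 2150 units for Aqp4, against 857 to 925 on the other neonatal arrays, and its gap to the nearest of them was 0.918 of the whole range on the log2 scale. An array was counted as far where this gap passed a cutoff that chance alone passes in about 1 of 20 sets. That rate holds for 4 values of the same kind, while each set here mixes contexts and duplications. How often chance gives a gap as large as 0.918 was not tested. On the same array Slc1a2 B read 994 units, the highest of its 8 values, while Slc1a3 and Slc4a4 were lower than on the maternal-7 cerebellum array.

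Slc1a2 A was higher in paternal-7 in both neonatal regions, by 0.24 in cortex and 0.05 in cerebellum, and lower in both embryonic ages, by -0.48 at 15.5 dpc and -0.20 at 13.5 dpc. The difference between neonatal and embryonic contexts was 0.49 ± 0.26, which limma did not call (adjusted p = 0.606).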

How the results depend on the processing

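Between neonatal and embryonic samples, Slc1a2 A, Slc1a3 and Slc4a4 kept their call under each of the 16 alternatives run, with log2 differences of 0.95 to 1.30, 0.94 to 1.32 and 1.38 to 1.66. Aqp4 kept its direction in 16 of 16 and its call in 12, with 0.78 to 1.28. The counts that follow are over the 5 tested probe sets, Slc1a2 B included. Leaving out 1 array in turn gave 4 to 5 called between neonatal and embryonic samples (1826 to 3523 of all tested, 4053 in the full fit), 2 to 4 for cortex (845 to 3492, 3400 in full) and 3 to 5 for cerebellum (947 to 3403, 3280 in full) against 13.5 dpc. It gave 0 to 1 for cortex (0 to 377, 558 in full) and 0 to 2 for cerebellum (0 to 564, 722 in full) against 15.5 dpc, and 0 to 1 for 15.5 against 13.5 dpc (0 to 522, 871 in full). Each such fit has 1 residual degree of freedom fewer.

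For 15.5 against 13.5 dpc, where 1 probe set was called, the count was 0 with a floor of 1, 0 with no filter and 2 with the filter requiring all 8 arrays. For cortex against 15.5 dpc, where 0 were called, it was 2 with median centring, 3 with a pseudocount of 200, 3 with the strict filter and 2 with no duplication term. For cerebellum against 15.5 dpc, where 2 were called, it was 1 with quantile normalization, 1 with a floor of 1, 1 with a pseudocount of 16, 4 with a pseudocount of 200, 0 with no filter and 4 with the strict filter. The cause was not tested. The filters change how many probe sets are adjusted over, and also the SE that limma gives. For cortex against 15.5 dpc, Aqp4 stayed at 0.76 with the strict filter, with an SE of 0.28 in place of 0.35. Over all tested probe sets the same alternatives called 207 to 1259 for 15.5 against 13.5 dpc (871 as given), 72 to 1217 for cortex (558) and 103 to 1343 for cerebellum (722) against 15.5 dpc, 11 to 83 between the regions (43) and 0 to 2 for the duplications (1) and for their difference between ages (0). Median centring made 83.9% of the cortex calls and 85.1% of the cerebellum calls against 15.5 dpc higher ones, where 64.0% and 67.0% were. Against 13.5 dpc these shares were 69.5% in cortex and 69.4% in cerebellum, where 51.6% and 52.4% were.

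Of the 23 list genes and members called between neonatal and embryonic samples, 2 lost the call with median centring and 3 with quantile normalization, and 0 changed sign. Among the values of the 4 genes, signs changed in some that were not called. With 1 array left out in turn, Slc1a2 B ran from -0.35 to 0.36 between cortex and cerebellum, Aqp4 from -0.53 to 0.28 between 15.5 and 13.5 dpc and from -0.31 to 0.88 for the difference of duplication effects. For the duplications Slc1a2 A ran from -0.21 to 0.03 and Slc1a2 B from -0.28 to 0.21. Without both 15.5 dpc arrays Slc1a2 A stood at 0.03, and without both 13.5 dpc arrays Slc1a2 B stood at 0.21. No paired analysis was possible because the labels number no replicates. The context term already makes the duplication comparison one within contexts. Signals near or below the array median, as those of Slc1a2 B in embryos, say little about a level.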
